A study of Mus musculus with 9 samples.

Results

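The nuclear-encoded respiratory chain genes were examined in RNA sequencing libraries of mouse embryonic stem cells. Members were the rows of the gene count table whose symbol began with Nduf, Sdha to Sdhd, Uqcr, Atp5 or Cox4 to Cox8, without pseudogene names, and whose count summed over the 9 libraries was at least 90. Of 33924 rows, 94 matched by name and 88 were members: 41 of complex I, 6 of complex II, 8 of complex III, 16 of complex IV and 16 of complex V. The 88th, Cox4nb, was taken in by its name only: it lies next to Cox4i1 and encodes a subunit of the endoplasmic reticulum membrane complex. The members include 8 assembly factors, and the gene listed as Atp5sl was counted with those of complex I. Ndufa4 and its relative Ndufa4l2 were counted with complex IV.

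The libraries came from male stem cells grown without treatment on gelatin, in medium with serum and LIF. They form 3 groups of 3: cells labelled wild type for UTX (titles JM8A), a UTX knockout (titles A6) and an MLL4 knockdown (titles JM8A with a further number). UTX is the histone H3K27 demethylase encoded by Kdm6a, and MLL4 is the H3K4 methyltransferase encoded by Kmt2d, which the table lists as Mll2. The labels do not say whether A6 or the cells with the further number are single clones, how the knockout or the knockdown was made, or whether replicates were separate cultures. A difference of clone or line therefore cannot be told apart from the perturbation, and p-values measure the spread between these libraries, which may be technical. In these bulk samples, fewer cells of a type and less RNA per cell cannot be told apart.

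The respiratory chain sits in the inner mitochondrial membrane. Complex I oxidises NADH and complex II succinate, complex III passes the electrons to cytochrome c, complex IV reduces oxygen, and complex V, the ATP synthase, uses the resulting proton gradient. Most subunits are encoded in the nucleus and assembled with a small set encoded by mitochondrial DNA. Mouse embryonic stem cells use both respiration and glycolysis, and several complex IV subunits have isoforms that are usually restricted to muscle, lung or testis or induced by low oxygen.

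Total counts per library ranged from 18570746 to 23874816. Kdm6a checked the knockout label: its level was 89.0, 57.1 and 90.6 CPM (counts per 1000000 of the library total, adjusted by TMM) for wild type replicates 1 to 3, an order kept for all groups below, and 12.8, 16.9 and 19.4 for the knockout (log2 fold change -2.27, adjusted p = 0.000155, edgeR's quasi-likelihood test with Benjamini-Hochberg adjustment, used for every adjusted p below). Kmt2d did not bear out the other label. It was at 86.2, 43.5 and 119 CPM in wild type and 71.0, 72.0 and 73.4 in those labelled MLL4 knockdown (log2 fold change -0.20, adjusted p = 0.624, and -0.51 with adjusted p = 0.0353 without wild type replicate 2). The Y-linked UTX paralog Uty was at 16.8, 9.67 and 15.7 CPM in wild type, 0.785, 0.908 and 0.789 in the knockout and 1.13, 0.724 and 1.11 in the labelled knockdown (adjusted p = 3.95e-05 and 7.80e-06 against wild type). All 4 tested genes of the Y chromosome were called lower in both groups, with median log2 fold changes of -3.93 and -4.18, while Kdm6b, Mll3 and Ep300 (p300) passed in no comparison. Directions drawn from the libraries labelled MLL4 knockdown rest on that label. All 10 embryonic stem cell markers tested were present, with a summed level of 5237 to 7247 CPM; in the labelled knockdown against wild type 4 were called higher and 2 lower. The 8 primitive endoderm markers summed to 17.1, 13.0 and 15.7 CPM in wild type, 15.6 to 19.4 in the knockout and 30.1 to 32.6 in the labelled knockdown, where 3 of the 6 tested were called higher than in wild type and 4 than in the knockout. Their part in the results was not tested. The 8 trophectoderm markers summed to 65.5, 502 and 418 CPM in the wild type libraries, against 35.4 to 64.2 in the knockout and 39.4 to 43.8 in the labelled knockdown. The 13 fibroblast markers summed to 28.6, 80.4 and 77.0 CPM in wild type and to 17.8 to 23.0 in the other 6 libraries, with Lum at 0 counts in every library.

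Wild type replicate 2 stood apart for these genes. It was the highest of the wild type libraries for 79 of the 88 members and the highest of all 9 for 54, while wild type replicate 3 was the lowest of all 9 for 41. Over all tested genes the shift went with transcript length. Among tested genes with transcripts under 600 bp, wild type replicate 2 lay a median of 0.40 log2 units above the mean of replicates 1 and 3, and among those of 4000 bp or more it lay at -0.35. Members are short, with a median transcript length of 875 bp against 2764 bp for all tested genes, and 51 of the 87 with a known length were under 1000 bp. Their median shift was 0.52 below 600 bp, 0.51 from 600 to 1000 bp, 0.39 from 1000 to 2000 bp and 0.28 from 2000 to 4000 bp, above the median of all genes in each of these classes. The 3 members of 4000 bp or more lay at a median of 0.44, against the trend of all genes. They were Cox4nb, which is not a respiratory chain gene, Atp5g1 (4660 bp) and Ndufb2 (4371 bp). Lengths are medians of annotated transcripts, and the transcripts present in these cells were not measured. The relatives Atp5g2 and Atp5g3 had 731 and 723 bp, so the lengths of these members are uncertain. The trophectoderm and fibroblast marker sums above were high in wild type replicates 2 and 3 and low in replicate 1, an order that the members did not follow. What part either difference has in the results below was not tested. Values without replicate 2 are given for the calls it ends and for each complex, for complex IV only in the labelled knockdown.

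**Figure D1:**
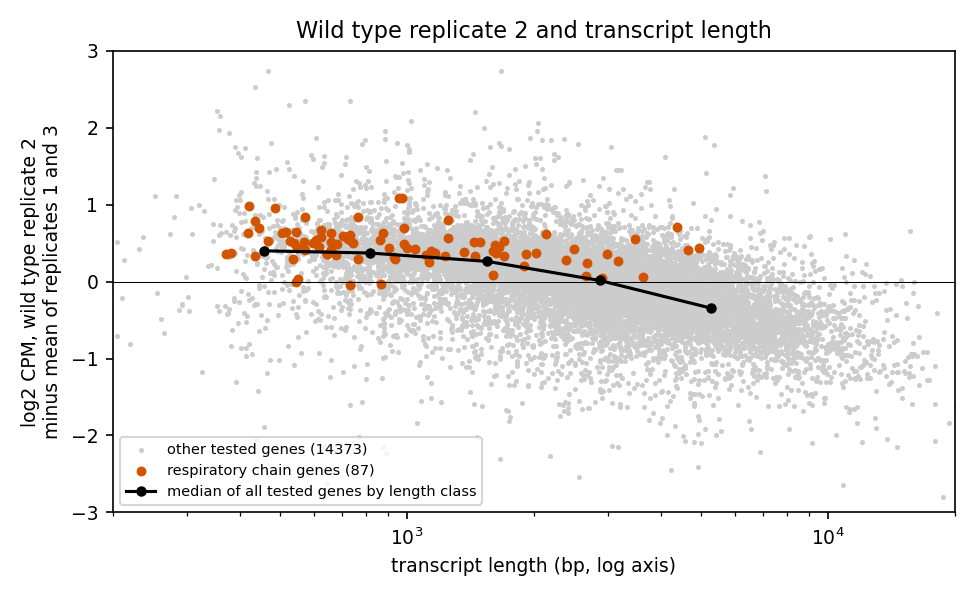
Each point is a gene, placed by transcript length (bp, log axis) and by its log2 CPM in wild type replicate 2 minus the mean of replicates 1 and 3; orange points are members, grey points the other tested genes, and the black line joins the medians of all tested genes in 5 length classes. The line falls from 0.40 below 600 bp to -0.35 at 4000 bp and above, and most members lie above 0.

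Promoter sequences are shown for 4 members: Cox7a1 and Ndufv3, both lower in the labelled knockdown than in either other group, Uqcrh, which differed from wild type, and Atp5k, which passed in no comparison and holds the NRF1 letters. Each is the 100 bases before the RefSeq start site in GRCm38.p6, written 5′ to 3′ on the gene's strand. The coordinates are chr7:30184071-30184170 (plus strand), chr17:31520015-31520114 (plus), chr4:116075071-116075170 (minus) and chr5:108434400-108434499 (minus). Capitals mark the letters of the NRF1 motif (GCGCATGCG) or the GABPA motif (CCGGAAGT), searched on both strands. Both factors are known as regulators of respiratory chain genes.
Cox7a1: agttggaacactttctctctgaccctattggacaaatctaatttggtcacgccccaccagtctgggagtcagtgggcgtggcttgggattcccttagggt
Ndufv3: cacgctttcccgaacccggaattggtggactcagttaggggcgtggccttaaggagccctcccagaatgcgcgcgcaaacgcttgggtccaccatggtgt
Uqcrh: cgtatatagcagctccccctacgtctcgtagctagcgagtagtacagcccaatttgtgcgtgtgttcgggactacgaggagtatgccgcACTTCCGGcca
Atp5k: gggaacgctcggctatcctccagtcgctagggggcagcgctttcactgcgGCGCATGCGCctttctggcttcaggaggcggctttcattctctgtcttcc
Uqcrh holds the GABPA letters on the opposite strand, beginning 11 bases before the start. Atp5k holds the NRF1 letters on both strands in overlapping copies, beginning 50 and 49 bases before the start. Neither motif was found in the stretches of Cox7a1 and Ndufv3.

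A RefSeq window from 250 bases before to 50 after a start site was matched for 72 of the 88 members. The NRF1 letters occurred in 9 of the 72 (12.5%), against 3.96% of 11005 tested genes with a window. The YY1 letters (AAGATGGC) occurred in 10 (13.9%), against 4.98%. The GABPA letters occurred in 5 (6.94%), against 8.59%. At least 1 of the 3 motifs was present in 23 members (31.9%) and in 16.4% of the tested genes. These are descriptions of letters, not of sites in use.

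Per length, ATP synthase subunits headed the levels. Atp5b, the catalytic beta subunit of the F1 head, had the highest mean over the 9 libraries at 1132 CPM per kb, followed by Atp5a1, the alpha subunit, at 584. Next came Cox4i1, the widely expressed form of complex IV subunit 4, at 474, Ndufa4 at 322 and Uqcrh, the hinge protein of complex III, at 318. In wild type, Atp5a1 (556 ± 54.3 CPM per kb, SD, n = 3) and Cox4i1 (654 ± 236) stood in the opposite order and lay within that spread of each other. In the labelled knockdown Atp5a1 (520.0 ± 8.21) was above Cox4i1 (322 ± 10.6). The highest members of complex I were Ndufa7 at 254 and Ndufa6 at 168 CPM per kb. Sdhd at 145 and Sdha at 130.1 led complex II, and Uqcrb at 207 followed Uqcrh in complex III.

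The subunits of the 5 complexes differed in median level: 58.3 CPM per kb for 36 subunits of complex I, 109 for 4 of complex II, 142 for 8 of complex III, 223 for 11 widely expressed subunits of complex IV and 149 for 15 of complex V. The 8 assembly factors had a median of 13.4 and the 4 tissue-restricted or inducible isoforms one of 19.2. The lowest member was Atp5l, a subunit of the membrane part of ATP synthase, at 0.919 CPM per kb and 95 counts in all. Many members have near-identical processed copies in the genome. How the authors' counting divided such reads is not given in the sources used here, so these low levels are uncertain. Levels per kb also rest on annotated lengths, among the longest of the members for Atp5g1 (16.1 CPM per kb) and Ndufb2 (3.02).

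Levels of the module as a whole in wild type overlapped those of both other groups. Summed over the 88 members, the level was 10888, 13996 and 10254 CPM in wild type, 11278, 12831 and 12604 in the knockout and 10866, 10814 and 10615 in the labelled knockdown. The median member lay at -0.09, 0.31 and -0.21 log2 units from its mean over the 9 libraries in wild type, at -0.02, 0.08 and 0.05 in the knockout and at -0.01, -0.05 and -0.06 in the labelled knockdown. Wild type thus spanned the widest range and enclosed both other groups, and every knockout library was above every labelled knockdown library in the summed level. The median coefficient of variation of a member was 21.6% in wild type, 10.9% in the knockout and 7.09% in the labelled knockdown, against 17.9%, 12.5% and 9.48% over all tested genes.

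**Figure D2:**
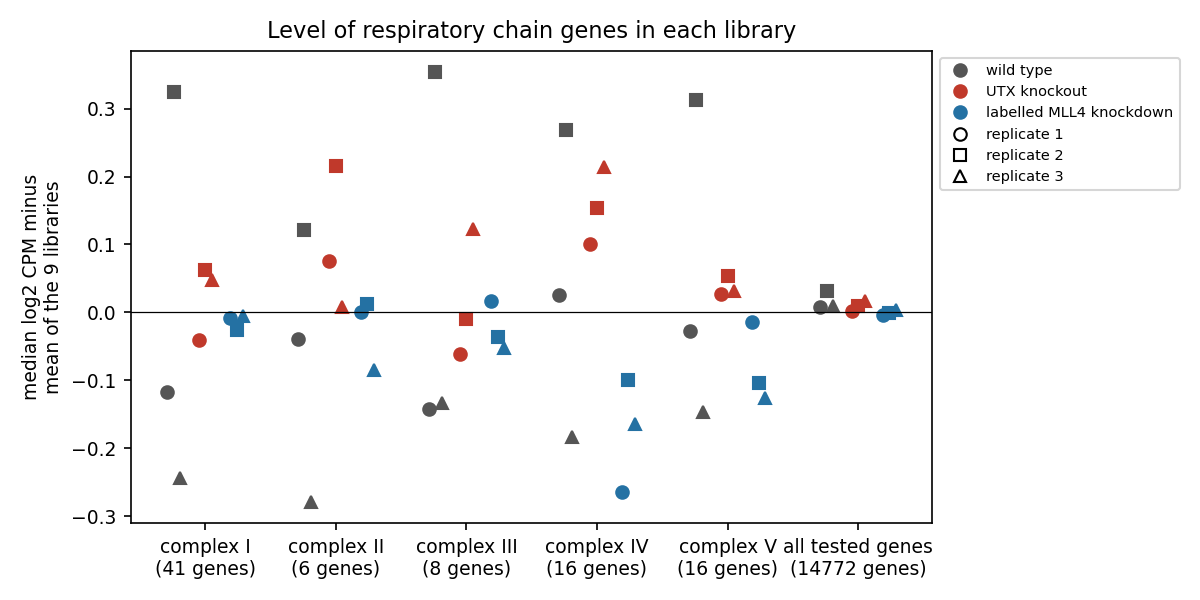
The vertical axis is the median, over the members of each complex, of log2 CPM in a library minus the gene's mean over the 9 libraries; colours are groups and marker shapes replicate numbers. Wild type replicate 2 (grey square) is highest in complexes I, III, IV and V, and complex IV is the complex where the 3 labelled knockdown libraries (-0.26, -0.10 and -0.16) lie below the 3 knockout libraries (0.10, 0.15 and 0.21) by the widest gap.

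All 88 members passed the filter on low counts and were tested among 14772 genes. Between the UTX knockout and wild type, 1 member rose and 3 fell, where 6.55% of all tested genes rose and 8.92% fell (15.5% together, against 4.55% of the members). The riser was Ndufa4l2, and those that fell were Cox4nb, the assembly factor Ndufaf4 and the complex I accessory subunit Ndufb7. The median log2 fold change was 0.02 over the members and -0.01 over all tested genes, and 80 of the 88 lay within 0.5 of 0. For 42 members the whole 95% interval lay within 0.5 of 0, and for the other 46 it reached further. The balance of directions rested on single wild type replicates. Without replicate 2 the median was 0.20, with 74 of 88 members above 0 rather than 46. Then 6 were called higher (Atp5a1, Cox7a1, Ndufa3, Ndufa6, Ndufb8 and Sdhb) and the same 3 lower. Of all tested genes 5.27% were called higher and 8.05% lower in that fit. Without wild type replicate 3 the median was -0.09, with 32 above 0. Without replicate 1 it was -0.01, with 40 above 0. With the replicate number as a block, 5 members were higher (Cox4i2, Cox8a, Ndufa4l2, Sdha and Sdhb), where 10.5% of all tested genes were. Lower were 6 (Cox4i1, Cox4nb, Ndufaf4, Ndufb6, Ndufb7 and Uqcrh), where 12.8% of all tested genes were. Within sequencing lane 2, which holds replicates 1 and 3 of each group, no member passed by edgeR (Cox4nb, adjusted p = 0.0960), where 74 of all tested genes did. Lane 1 holds 1 library of each group and gives no test.

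Between the libraries labelled MLL4 knockdown and wild type, 1 member rose, where 10.8% of all tested genes did, and 6 fell, where 15.8% did (26.6% together, against 7.95% of the members). Ndufs1, the large iron-sulfur subunit of complex I, rose. Cox7a1, Cox4i1, Atp5s, Cox4nb, Ndufv3 and Uqcrh fell. The median log2 fold change was -0.08 over the members against -0.02 over all tested genes, with 30 of 88 above 0. That direction also rested on wild type replicate 2, since without it the median was 0.11, with 61 above 0. Without wild type replicate 3 instead, the median was -0.18, with 19 above 0. With all 9 libraries kept and each library's length trend removed it was 0.06, with 55 above 0. Ndufs1 and all that fell but Uqcrh were called in that fit too. The 95% interval lay within 0.5 of 0 for 45 members. With the replicate block, 2 members were higher (Atp5sl and Ndufs1) and 9 lower, the same 6 with Cox4i2, Ndufa4l2 and Ndufb6. In that fit 14.6% of all tested genes were higher and 19.5% lower. Within lane 2, Cox4i1 alone passed, where 2.89% of all tested genes were higher and 6.19% lower.

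Between the libraries labelled MLL4 knockdown and the UTX knockout, no member rose, where 13.0% of all tested genes did, and 9 fell, where 16.0% did (28.9% together, against 10.2% of the members). By DESeq2 1 member was higher, where 15.2% of all tested genes were. At an unadjusted p under 0.05 by edgeR, 14 members differed in either direction. The 9 were Ndufa4l2, Cox7a1, Cox4i2 and Cox7a2l of complex IV, Atp5s, Atp5c1 and Atp5a1 of complex V, Ndufv3 of complex I and Sdhb of complex II. The median log2 fold change was -0.08 over the members and -0.02 over all tested genes, 27 of 88 were above 0, and the 95% interval lay within 0.5 of 0 for 36. This comparison holds no wild type library, but it shares the knockout and labelled knockdown libraries with the others. With the replicate block, Ndufaf4 was higher, and the same 9 with Cox4i1 and Cox8a were lower. Within lane 2, Cox4i2, Cox7a1, Ndufa4l2 and Ndufv3 were lower and the other 5 did not pass, where 6.16% of all tested genes were lower. Over the 3 comparisons 15 members passed at least once and 73 in none.

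**Figure D3:**
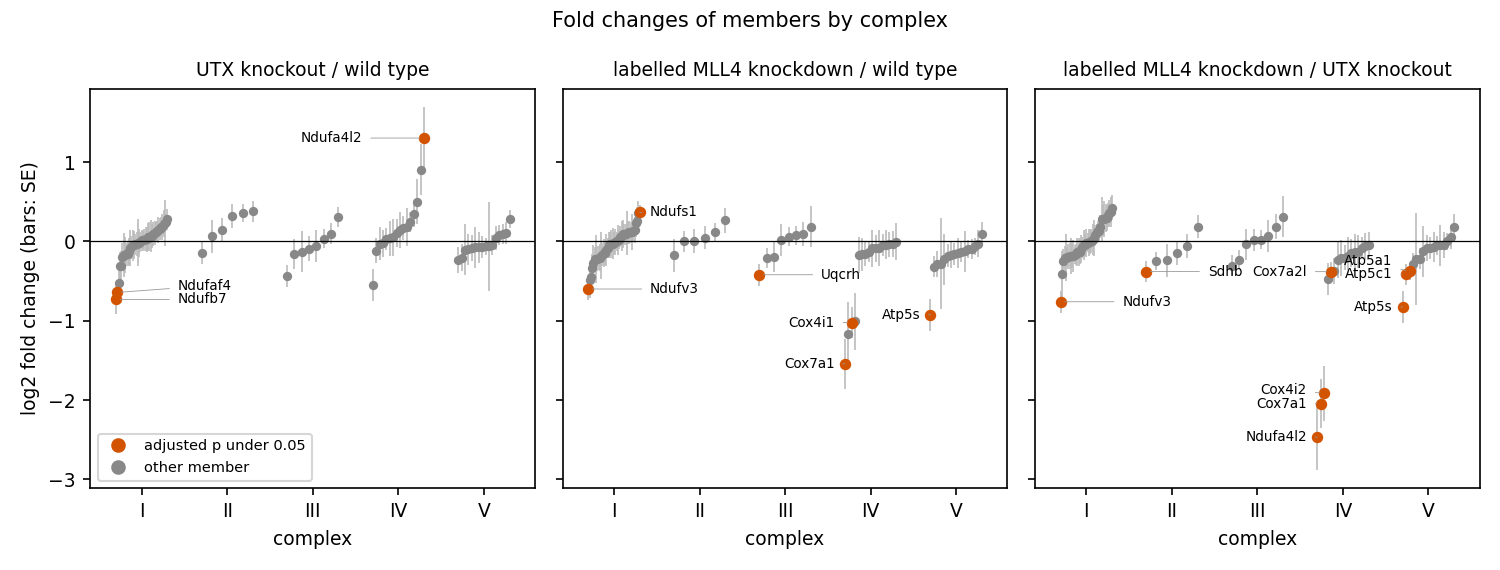
Log2 fold changes of the 87 members of complexes I to V (Cox4nb left out), sorted within each complex, with standard errors; orange points have an adjusted p under 0.05 and carry their names. Most members lie within 0.5 of 0 in all 3 panels, and the largest differences are those of Ndufa4l2, Cox7a1 and Cox4i2 in complex IV, at -2.47, -2.05 and -1.91 between the labelled knockdown and the knockout.

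Over the 41 members of complex I the median log2 fold change was 0.01, -0.02 and -0.02 for knockout against wild type, labelled knockdown against wild type and labelled knockdown against knockout, the order used for all such medians, beside -0.01, -0.02 and -0.02 over all tested genes. Without wild type replicate 2 the first 2 were 0.20 (36 of 41 above 0, rather than 21) and 0.19 (34 rather than 19). Its 7 nuclear core subunits, which carry the flavin and the iron-sulfur clusters, held 1 call. Ndufs1 was at 126, 128 and 117 CPM in wild type, 139, 159.6 and 142 in the knockout and 160.4, 159 and 158 in the labelled knockdown. The labelled knockdown and wild type libraries did not overlap, and the knockout lay between them with 1 library at the level of the labelled knockdown. The rise over wild type was 0.37 on the log2 scale (SE 0.10, adjusted p = 0.0186). It missed the threshold without wild type replicate 3 (adjusted p = 0.05004) and without each labelled knockdown replicate in turn (0.0571 to 0.0658). The core subunits Ndufs3, Ndufs7, Ndufs8, Ndufv1 and Ndufv2 had log2 fold changes from -0.17 to 0.28 over the 3 comparisons and passed in none.

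Among the 29 accessory subunits of complex I, Ndufv3, a small subunit of the NADH-oxidising module, was at 70.6, 90.3 and 70.4 CPM in wild type and 73.4, 88.5 and 96.8 in the knockout. It was at 50.8, 46.9 and 55.0 in the labelled knockdown, below every library of the other groups. It fell by 0.60 against wild type (SE 0.14, adjusted p = 0.00986) and by 0.76 against the knockout (SE 0.14, adjusted p = 0.00272) on the log2 scale. The call against the knockout was kept without each library in turn, and that against wild type was lost without labelled knockdown replicate 2 (adjusted p = 0.0554).

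Ndufb7, an accessory subunit of the membrane arm, was at 48.0, 82.5 and 56.3 CPM in wild type, 37.2, 33.2 and 42.2 in the knockout and 44.2, 45.1 and 47.6 in the labelled knockdown. All 6 libraries of the perturbed groups were below all 3 of wild type, and wild type replicate 2 was the highest. The fall in the knockout was -0.73 (SE 0.18, adjusted p = 0.0206), and the difference for the labelled knockdown was -0.45 (adjusted p = 0.0880). The fall was -0.47 without wild type replicate 2, and the call was lost without knockout replicate 2 (adjusted p = 0.0977) and with only the 2 groups in the fit (0.0584). The other 27 accessory subunits passed in no comparison. Ndufa6 had the largest value above 0 of complex I in the knockout, 0.28 (adjusted p = 0.177).

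The 5 assembly factors of complex I (Ndufaf1 to Ndufaf4 and Atp5sl) held 1 call. Ndufaf4 was at 46.0, 41.6 and 34.8 CPM in wild type, 30.2, 25.3 and 22.8 in the knockout and 40.7, 30.8 and 33.9 in the labelled knockdown. The 3 knockout libraries were the lowest of the 9. The fall against wild type was -0.64 (SE 0.16, adjusted p = 0.0197), and it missed the threshold without knockout replicate 2 (adjusted p = 0.0841) or 3 (0.0909). Against the knockout, all 5 factors were above 0 in the labelled knockdown, from 0.13 to 0.43, with none past the test. Ndufaf4 reached 0.43 (adjusted p = 0.0621).

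The 6 members of complex II had medians of 0.23, 0.03 and -0.19, and without wild type replicate 2 of 0.30 and 0.14 against wild type. The complex, which also serves the tricarboxylic acid cycle, was above wild type in the knockout for all 4 subunits, with log2 fold changes from 0.15 (Sdhc) to 0.38 (Sdhb), none past the test. Sdha, the flavoprotein, was at 349, 343 and 317 CPM in wild type, 368, 481 and 445 in the knockout and 366, 367 and 359 in the labelled knockdown. Every knockout library was above every wild type library (0.36, 95% interval 0.11 to 0.61, adjusted p = 0.0542). Sdhb, the iron-sulfur subunit, was at 80.2, 109 and 85.4 CPM in wild type, 109, 117 and 132 in the knockout and 86.9, 93.5 and 95.1 in the labelled knockdown. Wild type replicate 2 was level with knockout replicate 1 and the other groups otherwise lay below the knockout. Its knockout value was 0.38 (SE 0.13, adjusted p = 0.0702), which passed without wild type replicate 2 (0.53, adjusted p = 0.0115) and with the replicate block (0.39, adjusted p = 0.0340). Sdhb fell by 0.38 in the labelled knockdown against the knockout (adjusted p = 0.0496), at the threshold and lost without any of 5 of the 6 libraries (adjusted p = 0.104 to 0.160) or with no filter on low counts (0.0746). The assembly factors Sdhaf1 (-0.18 in the labelled knockdown against wild type) and Sdhaf2 (-0.14 in the knockout) had the lowest values of the complex in those comparisons, Sdhd the highest in the labelled knockdown (0.27), and none of the 3 passed in any.

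The 8 members of complex III had medians of -0.08, 0.04 and 0.02, and 1 passed. Without wild type replicate 2 the medians against wild type were 0.15 (7 of 8 above 0, rather than 3) and 0.16 (6 rather than 5), so that of the knockout turned direction. Uqcrh was at 210.4, 253 and 167 CPM in wild type, 153, 163 and 149 in the knockout and 158, 154 and 159 in the labelled knockdown. All 3 wild type libraries were above the other 6, which spanned a narrow range. It fell by 0.42 in the labelled knockdown (SE 0.14, adjusted p = 0.0427), a call lost without wild type replicate 1 (adjusted p = 0.0741), wild type replicate 2 (0.102) or any labelled knockdown replicate (0.103 to 0.133), and kept in 5 of 15 alternatives in all. In the knockout the value was -0.44 (adjusted p = 0.0515). Uqcrfs1, the Rieske iron-sulfur protein, and the core proteins Uqcrc1 and Uqcrc2 had values from -0.30 to 0.31 over the 3 comparisons. Uqcrc2 had the largest value above 0 in the knockout (0.31, adjusted p = 0.108) and Uqcrq, a small accessory subunit, in the labelled knockdown (0.19, adjusted p = 0.633).

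Complex IV held the largest differences among the members, in 3 of its 4 tissue-restricted or inducible isoforms. The 4 had medians of 0.71, -1.08 and -1.98 and the 11 widely expressed subunits medians of 0.04, -0.08 and -0.18. Ndufa4l2, a relative of Ndufa4 known to be induced by low oxygen, was at 16.5, 22.6 and 20.6 CPM in wild type and 23.6, 50.2 and 73.7 in the knockout. It was at 4.25, 10.7 and 11.5 in the labelled knockdown, so the 3 groups did not overlap, although knockout replicate 1 was close to wild type. It rose by 1.30 in the knockout (SE 0.39, adjusted p = 0.0436). That call was lost without wild type replicate 1 (adjusted p = 0.0724), 2 (0.0754) or 3 (0.0923), without knockout replicate 2 (0.121) or 3 (0.163), and by DESeq2 (0.0513). Its value in the labelled knockdown against wild type was -1.16 (SE 0.40, adjusted p = 0.0529; 0.00135 with a block). Against the knockout it fell by 2.47 (SE 0.41, adjusted p = 0.00156), which was kept without each of the 6 libraries in turn.

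Cox7a1, the heart and skeletal muscle form of subunit 7a, was at 4.67, 8.31 and 3.85 CPM in wild type, 5.64, 9.77 and 8.498 in the knockout and 1.94, 1.95 and 1.90 in the labelled knockdown. The labelled knockdown libraries were nearly equal and below all others, while wild type and knockout overlapped. It fell by 1.54 against wild type (SE 0.31, adjusted p = 0.00458) and by 2.05 against the knockout (SE 0.31, adjusted p = 0.000979). Both calls were kept without each library in turn. The difference between knockout and wild type was 0.50 (adjusted p = 0.261).

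Cox4i2, the form of subunit 4 known from lung and low oxygen, was near 1 CPM. It was at 1.25, 1.62 and 0.851 CPM in wild type, 1.62, 2.85 and 2.51 in the knockout and 0.538, 0.724 and 0.576 in the labelled knockdown, where all 3 libraries were below all others. It fell by 1.91 against the knockout (SE 0.34, adjusted p = 0.00231), a call kept without each library in turn. Its values against wild type were 0.91 in the knockout (adjusted p = 0.0759; 0.0313 with the replicate block) and -1.01 in the labelled knockdown (adjusted p = 0.0575; 0.0314 with the block). The fourth isoform above the count minimum, the testis form Cox6b2, was at 46.4, 47.7 and 31.0 CPM in wild type, 61.2, 36.7 and 31.8 in the knockout and 43.5, 37.7 and 36.6 in the labelled knockdown. Its groups overlapped and it passed in no comparison (values from -0.14 to 0.05).

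Of the 11 widely expressed subunits of complex IV, Cox4i1 passed. Cox4i1 was at 384, 708 and 409 CPM in wild type, 312, 373 and 340.5 in the knockout and 251, 251 and 237 in the labelled knockdown. The groups did not overlap, and wild type replicate 2 was far above its companions. It fell by 1.02 in the labelled knockdown against wild type (SE 0.20, adjusted p = 0.00371), by 0.68 without wild type replicate 2, and the call was kept under every alternative run. The value in the knockout was -0.55 (adjusted p = 0.0818; 0.0352 with the block), and -0.21 when wild type replicate 2 was left out (adjusted p = 0.17). The other 10 (Cox5a, Cox5b, Cox6a1, Cox6b1, Cox6c, Cox7a2, Cox7b, Cox7c, Cox8a and Ndufa4) passed in no comparison. All 16 members of complex IV were below 0 in the labelled knockdown against wild type (median -0.11), but without wild type replicate 2 only 7 of 16 were (median 0.03), and after removal of each library's length trend 6 were (median 0.08). Against the knockout all 16 were below 0 as well (median -0.21, and -0.11 with 13 below 0 after that removal). In the knockout against wild type the median over the 16 was 0.13, with 12 above 0.

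Cox7a2l, a factor that joins complexes III and IV in supercomplexes, was at 108, 114 and 129 CPM in the knockout and 79.7, 90.5 and 100.2 in the labelled knockdown. Those groups did not overlap, and wild type lay across both at 95.9, 111 and 89.6. The fall against the knockout was -0.38 (SE 0.13, adjusted p = 0.0428), lost without knockout replicate 2 (adjusted p = 0.0951) or 3 (0.149) and labelled knockdown replicate 1 (0.166) or 2 (0.116), or with no filter on low counts (0.0709).

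**Figure D4:**
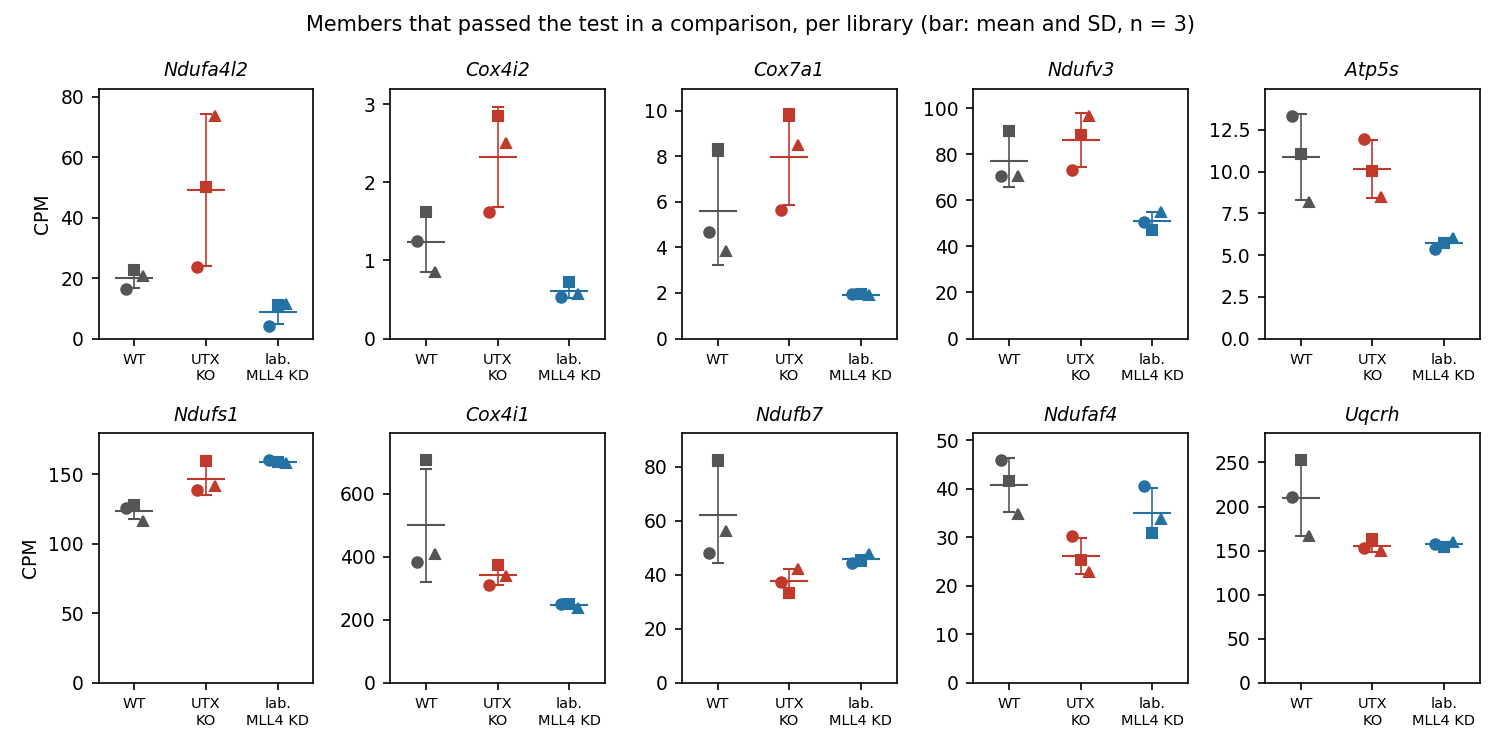
CPM in each library for 10 members that passed in at least 1 comparison, on linear axes that start at 0; circles, squares and triangles are replicates 1, 2 and 3, and bars are the mean and SD of 3 libraries. In the labelled knockdown (KD, blue) Ndufa4l2, Cox4i2, Cox7a1, Ndufv3 and Atp5s lie below all wild type (WT) and knockout (KO) libraries, and wild type replicate 2 is the high grey square for Cox4i1, Ndufb7 and Uqcrh.

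The 16 members of complex V had medians of -0.07, -0.15 and -0.08. Without wild type replicate 2 the knockout median turned to 0.11 (11 of 16 above 0, rather than 5) and that of the labelled knockdown against wild type was -0.006155 (7 rather than 1). The 5 subunits of the catalytic F1 head were all below 0 in the labelled knockdown against the knockout, and 2 of them fell. Atp5a1 was at 1604, 1899.8 and 1918 CPM in the knockout and 1371, 1386 and 1414 in the labelled knockdown, without overlap, with wild type at 1420.3, 1652 and 1385. Atp5c1, the gamma subunit that forms the turning stalk, was at 303, 384 and 358 CPM in the knockout, 271, 253 and 261 in the labelled knockdown and 302, 384 and 293 in wild type. In both genes the labelled knockdown varied little and knockout replicate 1 was nearest to it. The falls were -0.38 (SE 0.11, adjusted p = 0.0275) and -0.41 (SE 0.13, adjusted p = 0.0343). Leaving out knockout replicate 2 or 3 or any labelled knockdown replicate ended either call (adjusted p = 0.0778 to 0.101 for Atp5a1 and 0.0774 to 0.142 for Atp5c1). Atp5b was at 2053, 2562 and 1956 CPM in wild type, 2042, 2567 and 2352 in the knockout and 2035, 2023 and 1939.7 in the labelled knockdown and passed in none.

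None of the 10 subunits of the membrane part and side stalk passed in any comparison. Their values ranged from -0.29 to 0.18 over the 3 comparisons. Atp5g3, a gene for the rotor ring subunit c, was at -0.24 in the knockout and -0.28 in the labelled knockdown against wild type. Atp5j, coupling factor F6 of the side stalk, was at 0.10 in the labelled knockdown, the only member of complex V above 0 there. The protein known as coupling factor B, Atp5s, was at 13.3, 11.1 and 8.20 CPM in wild type, 11.9, 10.03 and 8.498 in the knockout and 5.38, 5.75 and 6.02 in the labelled knockdown, where every library was below the other 6. Atp5s fell by 0.92 against wild type (SE 0.20, adjusted p = 0.00713) and by 0.83 against the knockout (SE 0.20, adjusted p = 0.0117), and both calls were kept without each library in turn.

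All 3 members that fell in the knockout lie on chromosomes 8 and 4, by the annotation of gene symbols in GRCm38. Across the 775 tested genes of chromosome 8 the median log2 fold change was -0.44 in the knockout and -0.42 in the labelled knockdown against wild type, and 35.7% and 40.6% of them were called lower. Between the 2 perturbed groups the median was 0.02. Its 4 members (Cox4i1, Cox4nb, Ndufa13 and Ndufb7) were all below 0 in both comparisons with wild type, with medians of -0.64 and -0.56. Cox4nb was at 82.4, 122 and 98.0 CPM in wild type, 62.3, 49.0 and 52.4 in the knockout and 65.8, 63.6 and 58.9 in the labelled knockdown, with wild type above all 6 others, and fell by 0.88 (adjusted p = 0.00394) and 0.68 (adjusted p = 0.00674). On chromosome 4, with 985 tested genes, the medians were -0.15 and -0.21, and 19.4% and 27.2% of the genes were called lower. The medians of its 5 members (Ndufaf4, Ndufb6, Ndufs5, Sdhb and Uqcrh) were -0.44 and -0.22. Among the 79 members elsewhere, 1 rose and none fell in the knockout by edgeR (6 at an unadjusted p under 0.05), and 1 rose and 3 fell (Atp5s, Cox7a1 and Ndufv3) in the labelled knockdown against wild type. On each chromosome other than 4, 8 and Y, 4.63% to 9.12% of all tested genes rose and 3.15% to 8.6% fell in the knockout. In the labelled knockdown 8.17% to 19.2% rose and 9.04% to 17.1% fell there. What part the chromosome-wide differences have in the values of Cox4i1, Cox4nb and Ndufb7 on chromosome 8, and of Ndufaf4 and Uqcrh on chromosome 4, was not tested.

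**Figure D5:**
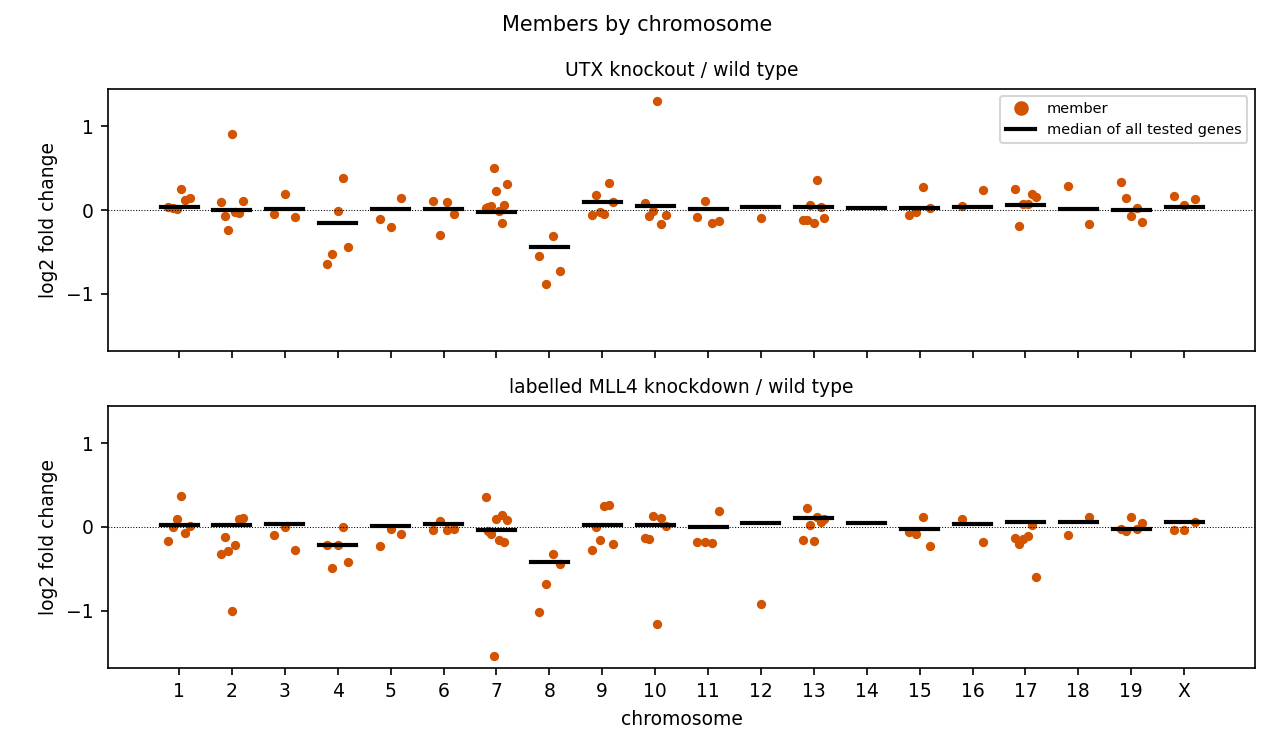
Log2 fold changes of members against wild type by chromosome (orange points), with the median of all tested genes on that chromosome (black bars), for the UTX knockout (top) and the labelled MLL4 knockdown (bottom). The bar of chromosome 8 lies at -0.44 and -0.42, and all 4 of its members are below 0 in both panels.

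The gene lists from here on stand beside the shares of all tested genes. The lists were not split by chromosome. On chromosome 8, 35.7% of tested genes fell in the knockout and 40.6% in the labelled knockdown against wild type. Calls of single list genes are given for the reported fit only, without values for single libraries left out. In the knockout 6.55% of all tested genes rose and 8.92% fell. In the labelled knockdown 10.8% rose and 15.8% fell against wild type, and 13.0% rose and 16.0% fell against the knockout. The mitochondrial genome encodes 13 subunits, of which 7 had enough counts to test, and 3 fell in the knockout: mt-Cytb, the cytochrome b of complex III (-0.75, adjusted p = 0.0140), mt-Nd1 (-0.72, adjusted p = 0.0187) and mt-Nd4 (-0.46, adjusted p = 0.0382). The level of mt-Cytb was 2805, 3238 and 4304 CPM in wild type, 2236, 1724 and 2182 in the knockout and 3251, 2918 and 3726 in the labelled knockdown, and the knockout libraries were the lowest. None of the 7 passed in the labelled knockdown against wild type by edgeR (1 at an unadjusted p under 0.05), and mt-Cytb rose against the knockout (0.69, adjusted p = 0.0118). Of the other 6, mt-Nd3, mt-Nd4l, mt-Co3 and mt-Atp8 were listed at 0 counts in every library, and mt-Co2 and mt-Atp6 were near 0. The annotation and the treatment of reads with several matches are not given, so these counts do not show that the genes were silent. The levels of the 7 tested genes carry the same limit. The medians over the 7 were -0.46, -0.31 and 0.15, beside 0.02, -0.08 and -0.08 over the 88 nuclear members.

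Among 19 genes of electron carriers and coenzyme Q synthesis, 2 rose and none fell in the knockout, 3 fell in the labelled knockdown against wild type and 1 against the knockout, with medians of 0.01, -0.08 and -0.14. The 2 that rose are 10.5% of the list, beside 6.55% of all tested genes. The 3 that fell are 15.8%, the same share as over all tested genes, and the 1 is 5.26%, beside 16.0%. Cyct, the testis form of cytochrome c, was at 35.1, 30.0 and 24.2 CPM in wild type, 54.4, 40.5 and 39.9 in the knockout and 16.5, 13.1 and 16.2 in the labelled knockdown. The 3 groups did not overlap. Cyct rose by 0.60 in the knockout (adjusted p = 0.0390) and fell by 0.96 in the labelled knockdown against wild type (adjusted p = 0.00265) and by 1.56 against the knockout (adjusted p = 0.000195). The others were Etfdh, which rose in the knockout (0.40, adjusted p = 0.0439), and Coq9 (-0.55, adjusted p = 0.00419) and Etfb (-0.73, adjusted p = 0.0186), which fell in the labelled knockdown against wild type.

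Of 7 adenine nucleotide, phosphate and outer membrane carriers, none passed in the knockout by edgeR (3 at an unadjusted p under 0.05) and 3 fell in the labelled knockdown against wild type, with medians of -0.17, -0.26 and -0.30. The 3 that fell are 42.9% of this short list, beside 15.8% of all tested genes. On chromosome 8 alone the share of tested genes that fell was 40.6%, and what part position has in this list was not tested. Slc25a5, an ADP/ATP translocase, was at 584, 747 and 521 CPM in wild type, 479, 439 and 395 in the knockout and 377, 314 and 267 in the labelled knockdown, with no overlap of the groups (-0.95, adjusted p = 0.00169). Slc25a4, its muscle and heart relative, fell by 0.73 (adjusted p = 0.00483) and Vdac3, an outer membrane channel, by 0.74 (adjusted p = 0.00294). Vdac3 also fell against the knockout (-0.50, adjusted p = 0.0194).

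The 16 tricarboxylic acid cycle genes had medians of 0.06, 0.09 and 0.02. Dld and Dlat, subunits of the pyruvate dehydrogenase complex, rose in the labelled knockdown against wild type (0.34 and 0.35, adjusted p = 0.0376 and 0.0173). Citrate synthase, Cs, fell in the labelled knockdown against the knockout (-0.46, adjusted p = 0.00581). Of 27 tested assembly factors outside the naming rule, none passed in the knockout by edgeR (0 at an unadjusted p under 0.05), Acad9 (0.35, adjusted p = 0.0313) and Fastkd2 (0.34, adjusted p = 0.0368) rose in the labelled knockdown against wild type, and Acad9, Cox10 and Fastkd2 rose and Cox18 fell against the knockout (medians -0.00, 0.01 and 0.06). Of 13 genes of mitochondrial transcription and replication, Peo1, the mitochondrial DNA helicase, fell in the knockout (-0.50, adjusted p = 0.0377), and Mterfd3 rose and Top1mt fell in the labelled knockdown against wild type (medians -0.15, 0.15 and 0.18).

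Among 11 tested regulators of respiratory chain genes, with medians of -0.10, 0.21 and 0.14, Gabpa rose in both groups against the shared wild type libraries. It was at 162, 132 and 186 CPM in wild type, 195, 231 and 216 in the knockout and 216, 214 and 224 in the labelled knockdown, without overlap of either group with wild type (0.42 with adjusted p = 0.0477, and 0.45 with adjusted p = 0.0252). Wild type replicate 2, which stood apart for the members, was the lowest library for Gabpa, and no value without that replicate is given here. Gabpb1, the partner of Gabpa, fell in the knockout (-0.36, adjusted p = 0.0423), as did Myc (-1.50, adjusted p = 0.0121). Ppargc1b, a coactivator of mitochondrial genes, fell in the labelled knockdown against wild type (-0.71, adjusted p = 0.0411) and against the knockout (-1.08, adjusted p = 0.00541). Nrf1 passed only in the labelled knockdown against the knockout (0.32, adjusted p = 0.0361).

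The 6 rows that matched by name but were left out were Cox7b2 with 71 counts over the 9 libraries, Atp5l2 with 36, Cox8c with 24, Cox8b with 16, Cox6a2 with 5 and the pseudogene Atp5l-ps1 with 2. Just inside the minimum were Atp5l with 95 and Cox4i2 with 273. Cox7b2, Cox8c, Cox8b and Cox6a2 are tissue-restricted isoforms of complex IV subunits, so 4 of its 8 such isoforms reached the minimum of 90 counts.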

How the data were processed

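RNA from 9 mouse embryonic stem cell samples was sequenced with a TruSeq RNA kit, 3 libraries per group. The authors deposited raw counts of reads per gene in 1 table. STAR 2.4 and HTSeq 0.6.1 were used, with mm9 and hg19 as builds, per the submitters' processing notes, and their roles are not recorded there. Not given in the sources used here are the annotation, the strand setting and the treatment of reads with several matches.

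The counts were tested with edgeR 4.0.16 (R 4.3.3, limma 3.58.1): TMM scaling, filterByExpr by group, and the quasi-likelihood test in 1 model of the 3 groups. Adjusted p-values are Benjamini-Hochberg values over 14772 genes, with a threshold of 0.05, and intervals are at 95%. Levels are CPM with TMM library sizes, and log2 CPM for single libraries used a prior count of 2. An exact permutation test of 3 against 3 libraries cannot go below p = 0.1 and was not used. Total counts of 18570746 to 23874816 per library limit the precision mainly for members near 1 CPM. Transcript lengths are the median coding transcript of GENCODE M21 (GRCm38, not the files' build) by symbol, and were found for 87 of 88 members. Promoter sequences are from RefSeq (GRCm38.p6). The fit was also run on simulated counts drawn without lane, replicate or length effects, so that run cannot speak to those effects.

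The members and the gene lists were chosen with earlier results of these data known. The members named were those past the threshold in any comparison, the largest rise and fall per complex against wild type, the 2 highest per kb in each complex, the tissue isoforms and those nearest the count minimum. For other lists, the 2 genes of smallest p per comparison were the candidates, and further called genes were named after their values were seen. No 2 libraries were identical beyond sampling noise (a chi-square of 6.42 to 56.5 per degree of freedom between libraries of a group). Same-numbered libraries of different groups deviated together, with correlations from 0.168 to 0.467 over the 3 comparisons. Those of different-numbered libraries ran from -0.412 to 0.226, so the ranges overlap. The replicate block takes the numbers to pair the libraries. The calls given as reported come from a model of the groups without that block. The labels put replicates 1 and 3 in lane 2 and replicate 2 in lane 1. Alternatives were DESeq2 1.42.0 as size factors and as test, other count filters, only the compared groups, the replicate block, removal of each library's trend on transcript length, lane 2 alone, and each library left out in turn. Results for some single genes are not reported here.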

Additional observations from a re-analysis of the deposited data

How the results depend on the processing

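Counts below are members called higher and lower. For the UTX knockout against wild type (1 and 3 as reported) they were 2 and 5 by DESeq2. With the replicate block they were 5 and 6, with each library's length trend removed 7 and 5, and with both 15 and 6. Lane 2 alone gave 0 and 0, and no filter gave 5 lower. The shares of all tested genes moved too: 9.13% and 10.8% by DESeq2, 10.5% and 12.8% with the block. They were 8.96% and 11.1% with the length trend removed, 13.7% and 15.7% with both, and 6.16% lower with no filter. In lane 2 they were 0.129% and 0.372%. For the labelled knockdown against wild type (1 and 6) the number higher was 2 with the block, 3 with the length trend removed, 12 with both and 0 in lane 2, where 1 was lower. Of all tested genes 14.6%, 13.6%, 18.8% and 2.89% were higher in these fits, in that order, and 6.19% lower in lane 2. Against the knockout (0 and 9) the number higher was 1 by DESeq2 and with the block, 2 with only the compared groups, 4 with the length trend removed and 9 with both, and 4 were lower in lane 2. The median there was -0.0121 with the length trend removed and -0.0135 with length and block. Among all tested genes, calls in the knockout numbered 1240 with only the compared groups, 3446 with the block, 4349 with block and length and 74 in lane 2. Lane 2 gave 1341 in the labelled knockdown against wild type and 1535 against the knockout, and block and length gave 6507 in the latter.

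With the length trend removed the median was 0.07 for the knockout and 0.06 for the labelled knockdown against wild type. With 1 library left out, calls among all genes ran from 833 to 2854, 2273 to 4108 and 2556 to 4062 in the 3 comparisons. Members higher ran from 0 to 6, 0 to 1 and 0 to 1, and lower from 1 to 5, 4 to 8 and 5 to 11. The median ran from -0.09 to 0.20, -0.18 to 0.11 and -0.11 to -0.07.

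For the gene lists other than the markers, the targets and their paralogs, only the counts of calls were followed through the alternatives. Of these counts, 428 equalled the reported count or lay within a factor of 1.5 of it, and 202 moved. Single genes of those lists were not followed. Of 897 alternative values of named members, Kdm6a and Mll2, 750 kept direction and side of the threshold. A call was lost in 60, one was gained in 59, and 28 turned direction, none of these called as reported. In the knockout Sdhaf2 was 0.0046 in lane 2, Atp5s ran from -0.264 to 0.0931 with 1 library left out (0.0342 without knockout replicate 3), and Cox6b2 from -0.281 (without knockout replicate 1; -0.122 without wild type replicate 3) to 0.252. In the labelled knockdown against wild type Cox5a (-0.0006) was 0.0131 with DESeq2 size factors, 0.0133 by DESeq2, 0.0333 with no filter, 0.0281 with the block, 0.0090 with only the compared groups, 0.174 with the length trend removed, 0.204 with length and block, 0.0234 in lane 2, and 0.114 without wild type replicate 2, wild type replicate 3 or knockdown replicate 1. Cox6b2 there was 0.129 with the length trend removed, 0.146 with block and length, 0.0506 in lane 2, and from -0.258 to 0.0248 with 1 library left out (0.0201 without wild type replicate 1). With 1 library left out Uqcrq ran from -0.0238 to 0.413, Atp5j from -0.050 to 0.285 and Mll2 from -0.507 to 0.159. Against the knockout Uqcrh was -0.00111 with at least 1 CPM in every library and from -0.00742 to 0.0571 with 1 library left out, and Cox6b2 was 0.0507 with length and block and from -0.320 to 0.198 with 1 left out. The causes were not tested.

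Lane and replicate number cannot be told apart, and lane 2 alone leaves 2 libraries per group. The 95% interval of a member's log2 fold change against wild type reached a median of 0.353 to either side, so smaller differences were often not detectable with 3 libraries per group. Levels of members near the count minimum rest on few reads.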
